A study of Homo sapiens with 8 samples.

Results

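The 28 genes described here make, sense and carry cholesterol, and were taken by name from a fixed list of cholesterol synthesis and uptake genes, out of 62649 genes counted. All 28 passed the filter on low counts, among 17671 genes tested. They comprise 7 genes of the mevalonate steps (ACAT2, HMGCS1, MVK, PMVK, MVD, IDI1 and FDPS) and 11 of the sterol steps (FDFT1, SQLE, LSS, CYP51A1, TM7SF2, MSMO1, NSDHL, HSD17B7, EBP, SC5D and DHCR7). A further 5 sense sterols or drive the pathway (INSIG1, INSIG2, SCAP, SREBF1 and SREBF2), and 5 move or store sterol (STARD4, NPC1, NPC2, NPC1L1 and SOAT1). Poly-A RNA was sequenced from the human colorectal adenocarcinoma lines SW480 and SW620, which were derived from the primary tumour and a lymph node metastasis of one patient. The 8 libraries formed 4 groups of 2 biological replicates: SW480 with caffeine, SW480 control, SW620 with caffeine and SW620 control. All groups carried the B8-mCherry reporter, a fluorescent fusion of the immunoproteasome subunit PSMB8, and grew in DMEM with fetal calf serum, which itself supplies cholesterol. The labels describe caffeine on SW620 cultures at 30 to 500 µM for 72 h and at 125 µM for 28 days, and do not say which exposure the sequenced SW620 and SW480 libraries had.

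Cells build cholesterol from acetyl-CoA through mevalonate and the isoprenoid farnesyl diphosphate to squalene, which is closed into lanosterol and trimmed to cholesterol. When sterol in the endoplasmic reticulum is scarce, the escort protein SCAP carries the transcription factors encoded by SREBF1 and SREBF2 to the Golgi, where they are cleaved, and the released parts switch on synthesis and uptake genes. INSIG1 and INSIG2 hold SCAP back when sterol is plentiful. Sterol taken up with lipoproteins leaves the lysosome through NPC2 and NPC1, STARD4 shuttles it between membranes, and SOAT1 esterifies it for storage. NPC1L1 takes up sterol at the surface of intestinal cells and is the target of ezetimibe.

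Few of these genes were called between caffeine and control. In SW620 the mRNAs of INSIG2, NPC1 and STARD4 were higher with caffeine, 3 of 28 genes where 8.1% of all genes tested were called higher. That count is close to the background, and the STARD4 call needed every SW620 library. In SW480 INSIG2 was lower with caffeine, where 1.93% of all genes were called lower, and no synthesis enzyme passed the threshold in either line. Between untreated SW620 and SW480 cells 3 of the 28 genes were called higher and 21 lower, where 33% of all genes were called higher and 32.6% lower.

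The promoters of the genes that changed, of INSIG1 for comparison with INSIG2, and of SREBF2 are shown because the pathway is classically controlled there. The windows are the 250 bases before the start of transcription in RefSeq on GRCh38.p14, read 5′ to 3′ on the strand of the gene. Capitals mark matches on either strand to the sterol regulatory element searched as TCACNCCAC, to the NF-Y box searched as CCAAT, and to the GC box searched as GGGCGG, so that a match on the other strand appears as the reverse complement.
INSIG2 (chr2:118088221-118088470, plus strand): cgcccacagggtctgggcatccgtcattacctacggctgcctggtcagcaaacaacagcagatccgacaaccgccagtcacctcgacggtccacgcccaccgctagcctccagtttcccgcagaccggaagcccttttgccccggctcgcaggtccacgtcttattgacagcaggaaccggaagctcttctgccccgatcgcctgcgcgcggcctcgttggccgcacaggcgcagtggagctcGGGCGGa
INSIG1 (chr7:155297628-155297877, plus strand): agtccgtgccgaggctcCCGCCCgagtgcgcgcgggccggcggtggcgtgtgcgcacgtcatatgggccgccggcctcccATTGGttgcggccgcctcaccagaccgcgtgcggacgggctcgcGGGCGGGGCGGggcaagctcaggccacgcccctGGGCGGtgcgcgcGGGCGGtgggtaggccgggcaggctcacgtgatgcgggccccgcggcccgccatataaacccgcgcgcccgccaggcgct
NPC1 (chr18:23586507-23586756, minus strand): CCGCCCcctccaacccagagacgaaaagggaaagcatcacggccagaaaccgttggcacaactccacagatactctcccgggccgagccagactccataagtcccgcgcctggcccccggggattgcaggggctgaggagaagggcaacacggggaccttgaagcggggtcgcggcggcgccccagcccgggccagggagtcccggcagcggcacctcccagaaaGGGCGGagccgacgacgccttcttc
STARD4 (chr5:111512536-111512785, minus strand): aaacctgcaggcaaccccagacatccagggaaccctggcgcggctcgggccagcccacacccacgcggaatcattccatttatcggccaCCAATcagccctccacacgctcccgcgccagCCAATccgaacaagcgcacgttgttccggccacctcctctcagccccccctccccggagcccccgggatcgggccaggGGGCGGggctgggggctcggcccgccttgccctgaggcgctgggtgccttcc
SREBF2 (chr22:41832855-41833104, plus strand): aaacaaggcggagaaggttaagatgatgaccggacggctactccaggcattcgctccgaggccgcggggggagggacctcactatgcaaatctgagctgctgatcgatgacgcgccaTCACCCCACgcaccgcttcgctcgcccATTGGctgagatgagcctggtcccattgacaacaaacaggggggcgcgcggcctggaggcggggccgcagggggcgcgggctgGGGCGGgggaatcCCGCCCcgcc

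Windows that also took in 50 bases after the start were available for 25 of the 28 genes, and 6 genes had more than 1 window. The sterol regulatory element letters occurred in 1 of these 25 genes (4%), SREBF2, which encodes the main driver of the pathway, against 1.39% of 27305 genes with a window. There the match TCACCCCAC began 133 bases before the start. The NF-Y box was present in 19 of 25 genes (76%), against 39.7% of all genes, and the GC box in 23 of 25 (92%), against 48.3% of all genes. INSIG2 and NPC1 held a GC box and no NF-Y box, while STARD4 and INSIG1 held both. Matches of different motifs shared no bases in the printed windows, and a pair of GC boxes in INSIG1 overlapped each other. A match is a string of letters and not a site shown to be bound, and no test was made. Only these letters were searched, so a promoter without a match may still hold a variant of the sterol regulatory element. The promoters of INSIG2, INSIG1, NPC1 and STARD4 were picked for printing after their values were seen.

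Reads assigned to genes numbered 15760259 to 23269315 per library, and levels are given in CPM, the usual count scaled to library size, after TMM scaling. Where no read was seen, up to 3 reads remain possible, equal to 0.129 to 0.190 CPM depending on the library, for counting error only. The summed level of 8 epithelial markers was 4623 to 14324 CPM per library, with CDX1 at 0 in all 8, and CDH1 at 192.0 to 395.6 CPM in SW620 against 0.129 to 0.908 CPM in SW480. Summed levels of other cell types were 2.96 to 47.0 CPM for 5 fibroblast markers, 1.09 to 2.28 CPM for 5 leukocyte markers and 0.424 to 10.8 CPM for 4 endothelial markers, with COL3A1 at 0 in 8 libraries and PTPRC and DCN at 0 in 7. SW480 caffeine replicate 2 had 1.63% of its assigned reads on mitochondrially encoded genes, where the other 7 libraries had 4.38% to 6.16%. The biological coefficient of variation between replicates was 7.00% in SW620 and 13.1% in SW480. In bulk RNA, fewer cells of a kind and less RNA per cell cannot be told apart.

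In SW620, caffeine raised 3 of the 28 genes and lowered 0 at an adjusted p under 0.05 (edgeR quasi-likelihood test, Benjamini-Hochberg over 17671 genes). Over all genes tested, 8.1% were called higher and 6.25% lower, so 3 of 28 is close to the background. The median log2 fold change was -0.06 over the 28 genes and -0.01 over all genes. At an unadjusted p under 0.05 the count was 5 of 28, against 4938 of 17671 genes. Marker levels also moved with caffeine in SW620: summed epithelial markers were at 14324 and 12914 CPM with caffeine against 10734 and 10666 CPM in controls, with CDH1 at 367.9 and 395.6 CPM against 192.0 and 198.9 CPM. These markers did not move as a set. KRT8, KRT18, KRT19 and VIL1 were also higher in both caffeine libraries, and CDX1 was at 0. EPCAM was lower, at 633.0 and 572.7 CPM against 695.7 and 705.4 CPM, and so was CDX2, at 80.0 and 87.9 CPM against 134.3 and 128.5 CPM. Summed endothelial markers were at 10.5 and 10.8 CPM with caffeine against 6.78 and 6.82 CPM in controls, and summed fibroblast markers at 46.97 and 44.2 CPM against 36.6 and 39.1 CPM, with COL3A1 at 0 throughout. Summed leukocyte markers overlapped, at 1.905 and 1.913 CPM with caffeine and 2.277 and 1.604 CPM in controls. The part of these in the cholesterol genes was not tested.

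INSIG2, which lies at chr2:118088452-118110997 on GRCh38, had 45.8 and 39.7 CPM in SW620 caffeine libraries, against 23.4 and 23.2 CPM in SW620 controls. Both caffeine libraries stood above both controls. The log2 fold change was 0.87 (SE 0.13, 95% interval 0.60 to 1.15, adjusted p = 0.000261), a 1.83-fold higher level. INSIG1, its close relative and itself a classical target of the sterol-regulated factors, had 39.7 and 41.6 CPM with caffeine and 41.1 and 42.4 CPM in controls, and these ranges overlapped. Its log2 fold change was -0.04 with a 95% interval of -0.32 to 0.24.

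NPC1, the lysosomal membrane protein whose loss causes Niemann-Pick disease type C, had 54.1 and 67.8 CPM with caffeine in SW620, against 34.3 and 31.9 CPM in controls. Its log2 fold change was 0.88 (SE 0.14, 95% interval 0.58 to 1.19, adjusted p = 0.000631), 1.84-fold. Its soluble lysosomal partner NPC2 had 26.1 and 23.5 CPM with caffeine and 26.97 and 27.1 CPM in controls, a log2 fold change of -0.13 (95% interval -0.44 to 0.19). NPC1 (chr18:23506184-23586898) shares 604 exon bases with RMC1 on the opposite strand, and the strand setting of the counting was not given.

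STARD4, a soluble sterol carrier, had 57.4 and 65.1 CPM with caffeine, against 41.0 and 48.6 CPM in SW620 controls. The groups did not overlap, and the log2 fold change was 0.45 (SE 0.13, adjusted p = 0.0309), 1.37-fold. This call needed all 4 SW620 libraries, and leaving out caffeine replicate 1 or 2 or control replicate 1 or 2 took the adjusted p of STARD4 to 0.0512, 0.238, 0.347 and 0.0802, with log2 fold changes of 0.34 to 0.59. The other transport genes were not called: NPC1L1 had 16.5 and 15.2 CPM with caffeine and 13.3 and 13.8 CPM in controls, and SOAT1 had 18.9 and 21.7 CPM with caffeine and 21.2 and 21.6 CPM in controls.

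**Figure D1:**
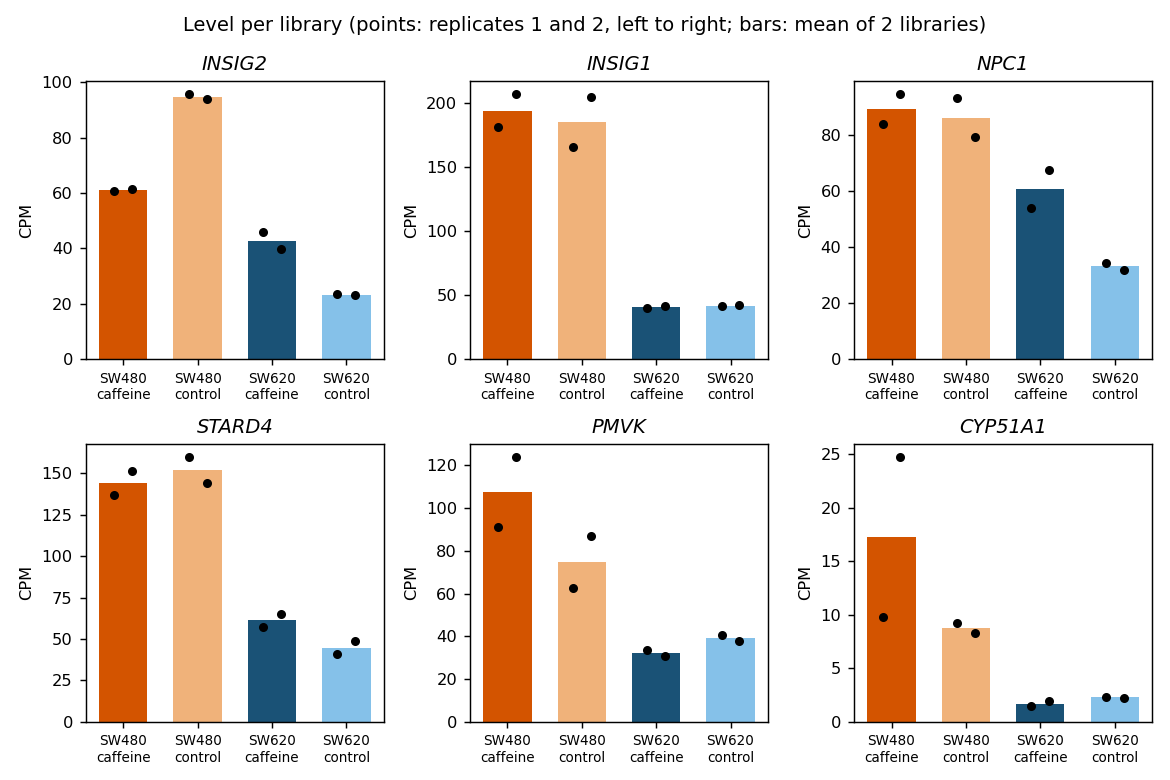
Level in CPM (vertical axes, from 0) of INSIG2, INSIG1, NPC1, STARD4, PMVK and CYP51A1 in each library, with points for replicates 1 and 2, bars for the mean of the 2 libraries, and groups from left to right SW480 caffeine, SW480 control, SW620 caffeine and SW620 control. INSIG2 stands at 60.9 and 61.5 CPM in SW480 caffeine libraries below the controls, and at 45.8 and 39.7 CPM in SW620 caffeine libraries above the controls, while INSIG1 overlaps between caffeine and control in both lines.

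None of the 18 synthesis enzymes was called in SW620, and the values that came closest lay below the controls. SQLE, squalene epoxidase and a rate-limiting step after squalene, had 32.9 and 32.0 CPM with caffeine against 41.1 and 40.1 CPM in controls (log2 fold change -0.32, 95% interval -0.59 to -0.06, adjusted p = 0.0933). IDI1, isopentenyl diphosphate isomerase, had 41.4 and 38.8 CPM with caffeine against 48.6 and 52.9 CPM in controls (log2 fold change -0.34, 95% interval -0.64 to -0.04, adjusted p = 0.122). With each line fitted alone, SQLE and IDI1 were called lower, with adjusted p-values of 0.0258 and 0.0211. PMVK, phosphomevalonate kinase, had 33.5 and 30.7 CPM with caffeine and 40.7 and 37.8 CPM in controls. LSS, which closes squalene epoxide into lanosterol, had 54.1 and 58.6 CPM with caffeine and 66.3 and 68.7 CPM in controls. The other 14 enzymes were uncalled as well, among them DHCR7, at 194.5 and 193.9 CPM with caffeine and 206.4 and 196.4 CPM in controls.

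Across the mevalonate steps in SW620, log2 fold changes ran from -0.34 to 0.11 with a median of -0.10, and across the sterol steps from -0.43 to 0.11 with a median of -0.11. The lowest sterol step value was that of CYP51A1, the lanosterol demethylase, at 1.43 and 1.91 CPM with caffeine against 2.28 and 2.26 CPM in controls. That gene was thinly counted in SW620, with 24 and 38 reads with caffeine and 45 and 45 in controls. The transcription factor genes overlapped between groups, with SREBF1 at 211.9 and 226.7 CPM with caffeine and 230.04 and 208.1 CPM in controls, and SREBF2 at 317.2 and 380.4 CPM with caffeine and 369.2 and 340.1 CPM in controls. Their log2 fold changes were 0.00 (95% interval -0.27 to 0.28) and -0.02 (95% interval -0.33 to 0.29), and that of SCAP was -0.03 (95% interval -0.35 to 0.28).

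In SW480, caffeine lowered 1 of the 28 genes, INSIG2, and raised 0. Over all genes 1.67% were called higher and 1.93% lower (edgeR, adjusted p under 0.05). INSIG2 had 60.9 and 61.5 CPM with caffeine, against 95.7 and 93.9 CPM in SW480 controls. The replicates lay close together and the groups far apart, with a log2 fold change of -0.63 (SE 0.12, 95% interval -0.89 to -0.37, adjusted p = 0.0122). Without SW480 caffeine replicate 2, the library with few mitochondrial reads, INSIG2 kept a log2 fold change of -0.66 with an adjusted p of 0.0962. INSIG1 had 181.0 and 206.7 CPM with caffeine and 165.6 and 204.2 CPM in controls, a log2 fold change of 0.07 (95% interval -0.20 to 0.34).

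The 7 mevalonate enzymes all had positive log2 fold changes in SW480, 0.04 to 0.63, and none of them was called. MVD, mevalonate diphosphate decarboxylase, had 68.5 and 94.7 CPM with caffeine, against 41.4 and 64.3 CPM in controls (log2 fold change 0.63, 95% interval 0.24 to 1.02, adjusted p = 0.0712). PMVK had 91.3 and 124.0 CPM with caffeine, against 62.4 and 86.7 CPM in controls (log2 fold change 0.53, 95% interval 0.18 to 0.88, adjusted p = 0.0878). MVK, mevalonate kinase, had 49.2 and 67.3 CPM with caffeine and 33.5 and 50.7 CPM in controls, and here the groups overlapped. In all 3 genes replicate 2 exceeded replicate 1 on both sides, so that the spread within a group was close to the difference between groups. HMGCS1, the cytosolic HMG-CoA synthase, had tighter values of 111.8 and 110.8 CPM with caffeine against 90.04 and 89.0 CPM in controls (log2 fold change 0.31, adjusted p = 0.166). ACAT2, IDI1 and FDPS, at 0.18, 0.06 and 0.04, overlapped between groups.

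Of the sterol steps in SW480, 8 of 11 had positive log2 fold changes and 0 were called. CYP51A1 had the largest, 1.00 (SE 0.29, adjusted p = 0.0744), from 9.78 and 24.7 CPM with caffeine against 9.26 and 8.29 CPM in controls. Only caffeine replicate 2 stood apart, with 581 reads of CYP51A1 against 142 to 153 in the other SW480 libraries. TM7SF2, a sterol reductase, had 89.8 and 97.3 CPM with caffeine and 57.3 and 77.7 CPM in controls (log2 fold change 0.47, adjusted p = 0.0908). SC5D, a sterol desaturase late in the pathway, had 96.0 and 81.5 CPM with caffeine and 106.9 and 111.3 CPM in controls (log2 fold change -0.30, adjusted p = 0.205). The other sterol steps were FDFT1 at 0.21, SQLE at 0.11, LSS at 0.36, NSDHL at 0.11, HSD17B7 at 0.15, EBP at 0.26, MSMO1 at -0.07 and DHCR7 at -0.01 on the log2 scale. LSS, at 148.7 and 196.5 CPM with caffeine, stood above its controls at 127.7 and 141.0 CPM (adjusted p = 0.152). CYP51A1 shares 2844 bases, 79.4% of its exon length, with ENSG00000285772, an overlapping protein-coding gene on the same strand that held 0 reads in every library, and reads falling on both may be missing from its counts.

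SREBF1 had 311.7 and 398.0 CPM with caffeine in SW480, against 249.4 and 274.7 CPM in controls (log2 fold change 0.44, 95% interval 0.16 to 0.71, adjusted p = 0.0748). SREBF2 had 212.9 and 293.5 CPM with caffeine and 233.7 and 208.1 CPM in controls, and SCAP had 84.2 and 119.4 CPM with caffeine and 87.4 and 89.7 CPM in controls. In both genes caffeine replicate 2 was high and replicate 1 was within or below the control range. NPC2 had 103.0 and 79.5 CPM with caffeine, against 120.0 and 138.0 CPM in controls (log2 fold change -0.50, 95% interval -0.80 to -0.21, adjusted p = 0.0580). On all libraries NPC2 was called lower by edgeR with DESeq2 size factors (adjusted p = 0.0449) or no filter on low counts (0.0192), and by the DESeq2 Wald test (0.0190). It was not called with limma-voom, with the replicate number as a block, with each line fitted alone or without mitochondrially encoded genes. NPC1 had 83.9 and 94.7 CPM with caffeine and 93.2 and 79.4 CPM in controls, and STARD4 had 137.1 and 151.3 CPM with caffeine and 159.9 and 144.4 CPM in controls. NPC1 and STARD4, the genes raised in SW620, thus overlapped between groups in SW480, with 95% intervals of -0.25 to 0.35 and -0.35 to 0.20. NPC1L1 was barely seen in SW480, with 2 and 3 reads with caffeine and 6 and 1 in controls, and SOAT1 had 22.5 and 23.7 CPM with caffeine and 23.8 and 23.8 CPM in controls.

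Both the SW480 median and the SW480 count depended on single libraries, and the count depended on the filter as well. At an unadjusted p under 0.05, 11 of 28 genes passed, against 3428 of 17671 over all genes, and the median log2 fold change was 0.13 against 0.00 for all genes. Dropping SW480 control replicate 1 took the median of the 28 genes to 0.00, and dropping SW480 caffeine replicate 2 took it to 0.04, in a range of 0.00 to 0.21 over the libraries dropped. Without SW480 caffeine replicate 1 this median was 0.17, and without SW480 control replicate 2 it was 0.21. With no filter on low counts 8 of the 28 genes were called. Of these, 6 were higher (MVK, PMVK, MVD, CYP51A1, TM7SF2 and SREBF1) and 2 lower (INSIG2 and NPC2). Calls over all genes rose as well in that fit, to 1073 from 636 in the main fit. The summed level of the 28 genes was 3206 and 3576 CPM with caffeine and 2881 and 3306 CPM in controls, and these ranges overlapped. Among the control libraries alone, 8 genes lay above the control mean in replicate 1 and 20 in replicate 2. Summed epithelial markers were at 6562 and 6899.6 CPM with caffeine against 4623 and 6014 CPM in SW480 controls. KRT8, KRT18 and KRT19 were higher in both caffeine libraries, EPCAM overlapped and CDX1 was at 0. CDX2 was lower, at 107.7 and 105.9 CPM against 141.1 and 142.2 CPM, as were VIL1, at 46.3 and 42.6 CPM against 61.3 and 53.5 CPM, and CDH1. The part of these markers in the values of the 28 genes was not tested. Caffeine replicate 2 is also the library with few mitochondrial reads. In the fit without mitochondrially encoded genes the median of the 28 genes in SW480 was 0.13. That fit called 1 of the 28 genes, and 639 over all genes. The part of caffeine replicate 2 in these values was not tested beyond this fit and leaving the library out.

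**Figure D2:**
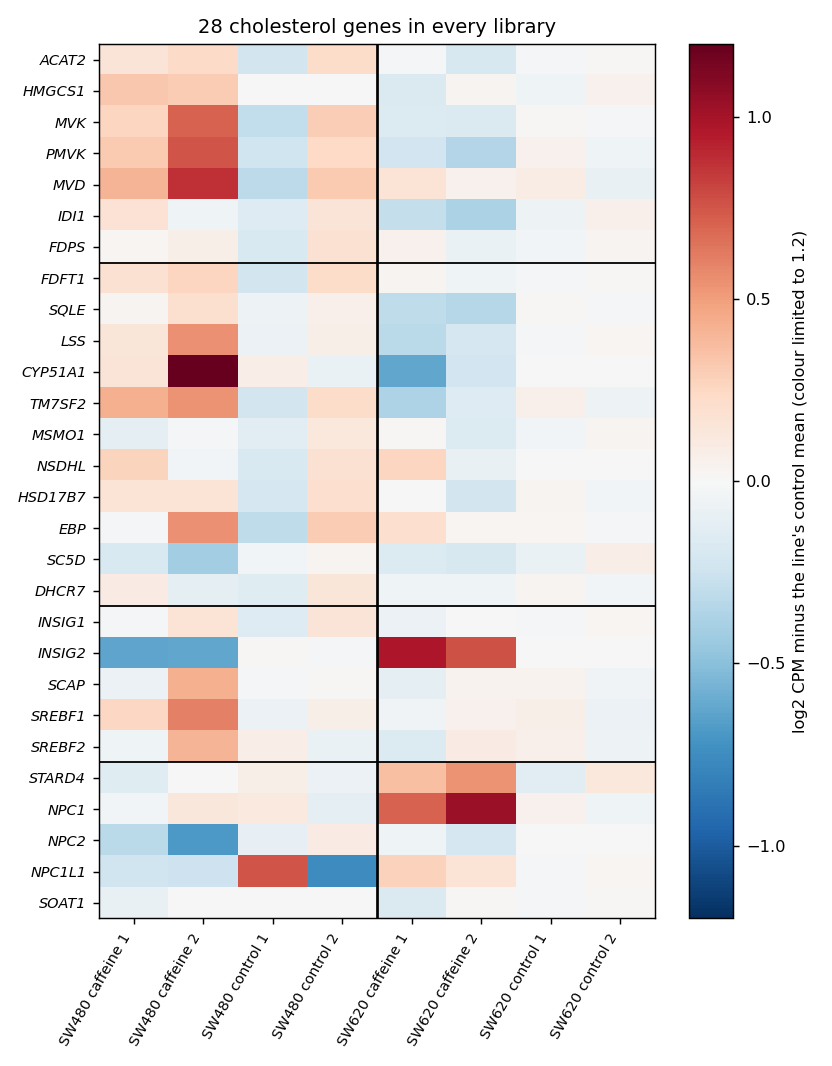
Log2 CPM of each of the 28 genes (rows, in pathway order, with lines between the 4 role groups) minus the mean of the controls of the same line, in each of the 8 libraries (columns), with colour limited at 1.2 on the log2 scale. INSIG2 is below the control mean in SW480 caffeine libraries and above it in SW620 caffeine libraries, and SW480 control replicate 1 has 8 of 28 genes above the control mean while replicate 2 has 20.

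The caffeine responses of the lines were then compared directly, as the SW620 log2 fold change minus the SW480 log2 fold change. The response was higher in SW620 for 2 of the 28 genes and lower for 1, where 4.24% of all genes were called higher and 2.47% lower (edgeR interaction contrast). The median difference was -0.22 over the 28 genes and -0.02 over all genes. Dropping SW480 control replicate 1 took the median of the 28 genes to -0.07, and dropping SW480 caffeine replicate 2 took it to -0.12, in a range of -0.29 to -0.07. INSIG2 differed by 1.51 (SE 0.18, 95% interval 1.13 to 1.88, adjusted p = 9.21e-05), from opposite changes of 0.87 in SW620 and -0.63 in SW480, each called in its own line. The INSIG2 call held under every alternative fit and with any 1 library left out.

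NPC1 differed by 0.83 (SE 0.20, 95% interval 0.41 to 1.26, adjusted p = 0.0197), with log2 fold changes of 0.88 in SW620 and 0.05 in SW480. Without SW620 caffeine replicate 2, control replicate 1 or control replicate 2, the adjusted p of the NPC1 difference was 0.112, 0.0664 and 0.113, at values of 0.66 to 0.90. PMVK differed by -0.82 (SE 0.24, 95% interval -1.33 to -0.32, adjusted p = 0.0469), with uncalled log2 fold changes of -0.29 in SW620 and 0.53 in SW480. The PMVK call was lost with DESeq2 size factors (adjusted p = 0.0540), with limma-voom (0.0561), and on leaving out any one of SW480 caffeine replicate 2 (0.228), SW480 control replicate 1 (0.109), SW620 caffeine replicates 1 and 2 (0.0732 and 0.145) and SW620 control replicates 1 and 2 (0.177 and 0.111). The STARD4 difference was 0.53 (SE 0.18, adjusted p = 0.0967). A larger response of STARD4 in SW620 than in SW480 was thus not shown by the main edgeR fit. With the DESeq2 Wald test its adjusted p was 0.0491. Without SW480 control replicate 2, edgeR put the STARD4 difference at 0.63 and called it. Dropping SW480 caffeine replicate 1 took the median difference of the 28 genes to -0.27, and dropping SW480 control replicate 2 took it to -0.29. Without SW620 caffeine replicate 2, control replicate 1 or control replicate 2 it was -0.16, -0.16 and -0.22.

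All 7 mevalonate enzymes had a negative difference, -0.82 to -0.05, and 10 of the 11 sterol step enzymes did so as well, with SC5D at 0.12 as the exception and MSMO1 at -0.00. Only PMVK among these 18 was called. TM7SF2 came next, at -0.73 (95% interval -1.18 to -0.27, adjusted p = 0.0529), and LSS at -0.62 (95% interval -1.03 to -0.21, adjusted p = 0.0646). TM7SF2 was called with the DESeq2 Wald test (adjusted p = 0.0382), and with the replicate number as a block (0.0472). With no filter on low counts MVK, LSS, CYP51A1 and TM7SF2 were called as well. CYP51A1 had the most negative difference, -1.43, with a wide 95% interval of -2.56 to -0.30. Since the enzymes of the pathway share regulators and the same 8 libraries, these directions are not independent of each other.

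**Figure D3:**
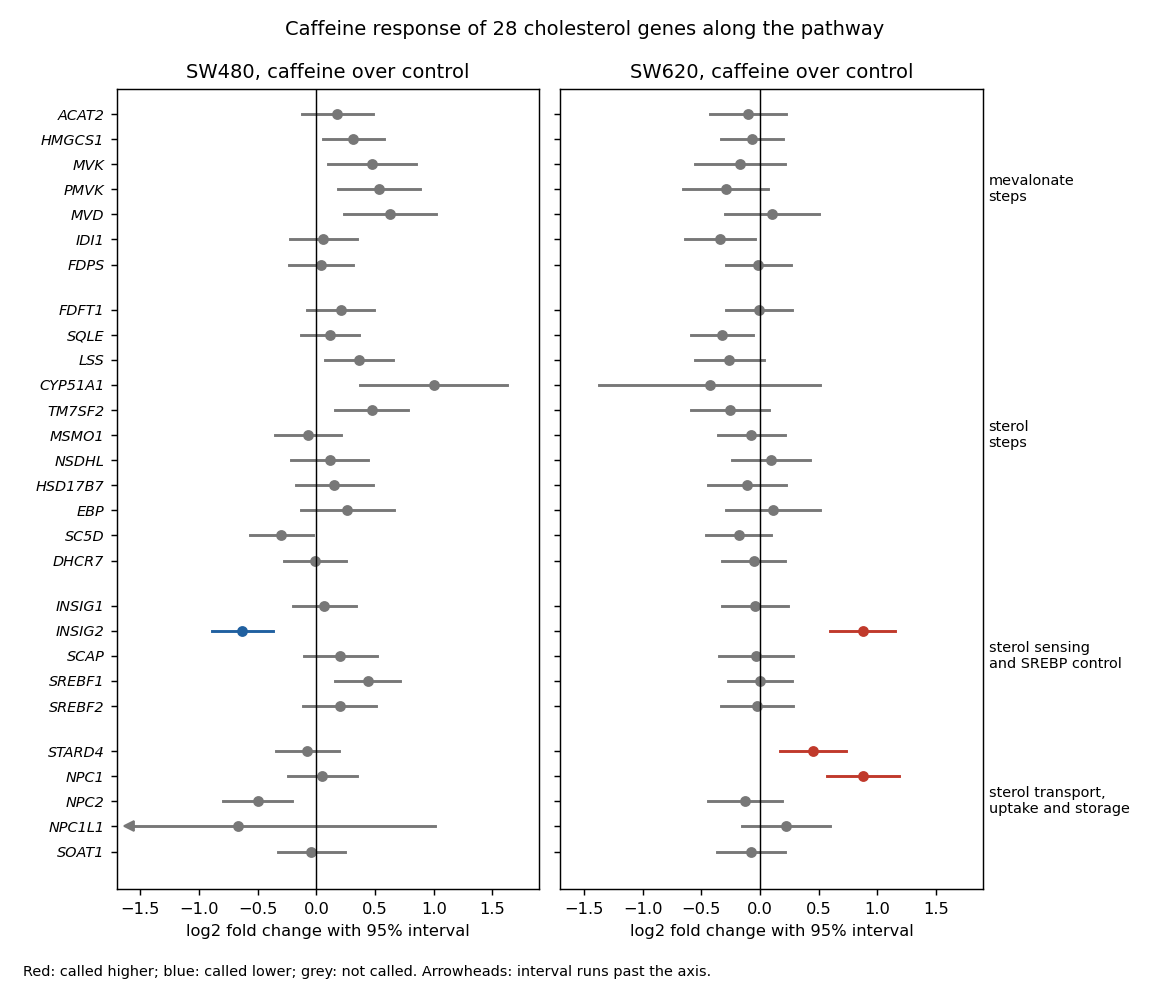
Log2 fold change of caffeine over control (horizontal axis) with its 95% interval for each of the 28 genes in pathway order, in SW480 (left panel) and SW620 (right panel), coloured red where called higher, blue where called lower and grey where not called. INSIG2 is called lower at -0.63 in SW480 and higher at 0.87 in SW620, NPC1 and STARD4 are called higher in SW620, and the widest intervals belong to the thinly counted NPC1L1 in SW480 and CYP51A1 in SW620.

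Untreated SW620 cells had lower levels of most of these mRNAs than untreated SW480 cells. Of the 28 genes 21 were called lower and 3 higher, where 32.6% of all genes were called lower and 33% higher (edgeR, adjusted p under 0.05). The median log2 fold change, SW620 over SW480, was -0.90 for the 28 genes and 0.03 for all genes. The summed level was 1965 and 1920 CPM in SW620 controls, against 2881 and 3306 CPM in SW480 controls. NPC1L1, among the 3 called higher, passed the filter on low counts only through its SW620 reads. The uncalled genes were HSD17B7, SCAP, SREBF1 and SOAT1. Cell type markers also differed between the lines, with summed epithelial markers at 10734 and 10666 CPM in SW620 controls against 4623 and 6014 CPM in SW480 controls. EPCAM, CDH1, KRT8, KRT18, KRT19 and VIL1 were each higher in SW620, and CDX1 was at 0. CDX2 was lower in SW620, at 134.3 and 128.5 CPM against 141.1 and 142.2 CPM. Summed fibroblast markers were at 36.6 and 39.1 CPM in SW620, most of it LUM, against 3.33 and 3.04 CPM in SW480, and summed endothelial markers at 6.78 and 6.82 CPM against 0.424 and 0.992 CPM. The part of these in the cholesterol genes was not tested.

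All 7 mevalonate enzymes were lower in SW620, with log2 fold changes of -1.58 to -0.50. ACAT2, which makes acetoacetyl-CoA at the entry to the pathway, had 26.97 and 27.5 CPM in SW620 controls, against 68.7 and 93.8 CPM in SW480 controls (log2 fold change -1.58, SE 0.15, adjusted p = 9.02e-08). FDPS, farnesyl diphosphate synthase, had 71.6 and 75.3 CPM in SW620, against 177.6 and 227.5 CPM in SW480 (log2 fold change -1.46, SE 0.13, adjusted p = 4.48e-08). In both genes every SW620 library lay below every SW480 library. ACAT2 shares 33.9% of its exon bases with SOD2-OT1 and 26.5% with SOD2 on the opposite strand, and FDPS has 8 annotated pseudogenes by name, so their counts carry that uncertainty. PMVK, IDI1 and HMGCS1 lay at -0.93, -0.88 and -0.73. MVK and MVD, at -0.50 and -0.62, were the smallest changes of the group, and without SW480 control replicate 2 their adjusted p-values were 0.327 and 0.145. Leaving out SW620 control replicate 1 took MVK to 0.0636, and leaving out SW620 control replicate 2 took MVK and MVD to 0.0792 and 0.0597.

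Of the 11 sterol step enzymes 9 were lower and 1 higher in SW620, and HSD17B7, at 19.1 and 18.1 CPM in SW620 and 17.31 and 22.998 CPM in SW480, was not called. SQLE was far lower, with 41.1 and 40.1 CPM in SW620 controls, against 151.9 and 165.5 CPM in SW480 controls (log2 fold change -1.97, SE 0.12, adjusted p = 3.91e-10). FDFT1, squalene synthase, which feeds SQLE with its substrate, was the enzyme that was higher, with 237.9 and 243.6 CPM in SW620, against 112.5 and 153.3 CPM in SW480 (log2 fold change 0.86, SE 0.14, adjusted p = 3.09e-05). These neighbouring steps thus differed in opposite directions between the lines. SC5D had 35.4 and 39.5 CPM in SW620, against 106.9 and 111.3 CPM in SW480 (log2 fold change -1.54, SE 0.13, adjusted p = 2.05e-08). TM7SF2 had 26.7 and 24.4 CPM in SW620, against 57.3 and 77.7 CPM in SW480 (log2 fold change -1.40, adjusted p = 4.86e-07). MSMO1, a methylsterol oxidase, had 36.2 and 37.9 CPM in SW620, against 68.3 and 81.7 CPM in SW480 (log2 fold change -1.02, adjusted p = 4.50e-06). The other lower enzymes of this group, LSS, CYP51A1, NSDHL, EBP and DHCR7, ran from -1.95 for CYP51A1 to -0.57 for EBP. Without SW480 control replicate 1 the adjusted p of CYP51A1 was 0.0544, and EBP reached 0.222 when SW480 control replicate 2 was dropped and 0.0631 when SW620 control replicate 2 was dropped.

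Both INSIG genes were lower in SW620. INSIG1 had 41.1 and 42.4 CPM in SW620 controls, against 165.6 and 204.2 CPM in SW480 controls (log2 fold change -2.15, SE 0.14, adjusted p = 3.97e-10). INSIG2 had 23.4 and 23.2 CPM in SW620, against 95.7 and 93.9 CPM in SW480 (log2 fold change -2.02, SE 0.13, adjusted p = 5.22e-10). SREBF2 was higher in SW620, with 369.2 and 340.1 CPM against 233.7 and 208.1 CPM in SW480 (log2 fold change 0.68, SE 0.15, adjusted p = 0.000652). SCAP and SREBF1 were not called, at -0.32 (adjusted p = 0.0706) and -0.26 (adjusted p = 0.0920). Both were called lower when SW480 caffeine replicate 1 or 2 was left out, with adjusted p-values of 0.0202 and 0.0178 for SCAP and 0.0443 and 0.0361 for SREBF1. SREBF1 was also called without SW480 control replicate 1 (0.0450).

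Levels per kilobase of annotated exon were used to set genes beside each other. The length takes in every exon annotated for a gene, whichever transcripts were expressed, so an order between genes is approximate. INSIG1 averaged 11.4 and INSIG2 5.90 CPM per kilobase in SW620 controls, and INSIG1 50.7 and INSIG2 23.99 in SW480 controls. By this measure INSIG1 was the more abundant of the pair in both untreated lines. With caffeine the means were 11.1 for INSIG1 and 10.8 for INSIG2 in SW620, so that their levels came close, and 53.1 for INSIG1 and 15.5 for INSIG2 in SW480, so that they lay further apart. The INSIG2 level in SW620 with caffeine, 42.8 ± 4.29 CPM, was still below the 61.2 ± 0.426 CPM of SW480 with caffeine (SD, n = 2 each), although the gap was narrower than between the controls, at 23.3 ± 0.124 CPM in SW620 and 94.8 ± 1.28 CPM in SW480. That narrowing is the difference of 1.51 given above.

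Of the genes on the list, the transport genes NPC1L1 and NPC2 differed most between the lines. NPC2 differed by little more than INSIG1, at -2.15, and the other transport genes differed less than INSIG1. NPC1L1 had 13.3 and 13.8 CPM in SW620 controls, from 263 and 276 reads, against 0.363 and 0.0584 CPM in SW480 controls, from 6 and 1 reads (log2 fold change 5.98, SE 0.34, adjusted p = 8.74e-11). In SW480 the gene lay near the level that a count of 0 allows, so the size of the fold is uncertain. NPC1L1 passed the filter on low counts only through its SW620 reads, so its call between the lines was not independent of that filter. NPC2 had 26.97 and 27.1 CPM in SW620, against 120.0 and 138.0 CPM in SW480 (log2 fold change -2.25, SE 0.15, adjusted p = 7.20e-10). STARD4 had 41.0 and 48.6 CPM in SW620, against 159.9 and 144.4 CPM in SW480 (log2 fold change -1.76, adjusted p = 4.66e-09). NPC1 had 34.3 and 31.9 CPM in SW620, against 93.2 and 79.4 CPM in SW480 (log2 fold change -1.38, adjusted p = 2.83e-07). With the exception of NPC1L1, the carriers called between the lines were thus lower in SW620, and SOAT1 was not called, at 21.2 and 21.6 CPM in SW620 and 23.8 and 23.8 CPM in SW480.

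The most abundant of the 28 per kilobase was DHCR7, the reductase of a final step, with 48.4 CPM per kilobase in SW620 controls and 80.6 in SW480 controls. In SW620 it was followed by SREBF2 at 46.9, whose replicates overlapped those of DHCR7, and by FDFT1 at 46.3, whose replicates overlapped those of SREBF2. In SW480 it was followed by PMVK at 58.3, FDPS at 54.5 and INSIG1 at 50.7, and the replicates of these 3 overlapped each other but not those of DHCR7. NPC1L1 was the least abundant in SW480, at 0.0401 CPM per kilobase. CYP51A1 had 0.632 CPM per kilobase in SW620, over an exon length of which 79.4% overlaps ENSG00000285772, so that its place in this order is uncertain.

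**Figure D4:**
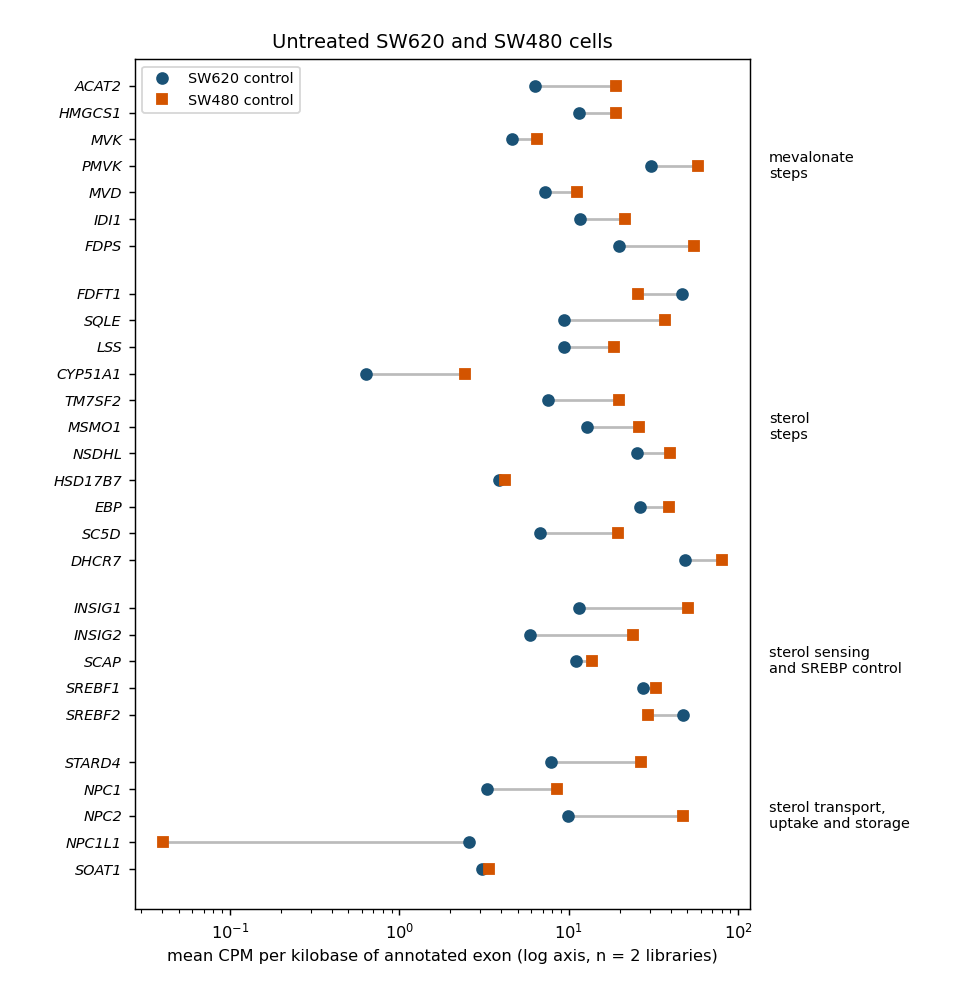
Mean level per gene in CPM per kilobase of annotated exon (horizontal log axis, n = 2 libraries) of the 28 genes in pathway order in untreated SW620 (circles) and SW480 (squares) cells. SW620 lies left of SW480 for all but FDFT1, SREBF2 and NPC1L1, with the widest gap at NPC1L1 (2.58 against 0.0401).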

How the data were processed

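RNA-seq of 8 libraries (poly-A, directional kit, single-end reads of 75 bases, RNA integrity number of at least 8, per the labels) was used. The authors deposited raw counts of reads per Ensembl gene, and the submitters' processing notes name Trim Galore, STAR 2.7.3a, featureCounts 2.0.5 and the build hg38. No source used here gives the annotation release or the strand setting, so reads of overlapping antisense genes may be mixed. The 12 assignment totals in each deposited file were set aside, leaving counts of 62649 genes. Between 7.36% and 8.37% of reads were left unassigned as ambiguous. Symbols were matched for 62625 IDs, coordinates and exon lengths came from GENCODE 29 on GRCh38, and 14 of the 28 genes shared exon bases with another gene, 3 of them on the same strand.

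Counts were tested with edgeR 4.0.16 in R 4.3.3 (TMM scaling, filterByExpr, robust quasi-likelihood F test, 1 mean per group over all 8 libraries, Benjamini-Hochberg over 17671 genes, threshold 0.05). The log2 CPM values of the heatmap used a prior count of 2. Standard errors are the absolute log2 fold change divided by the square root of F, and intervals are at 95%. The code was tested on simulated data. Promoters came from RefSeq.

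Alternatives were DESeq2 size factors, no filter, DESeq2 1.42.0 with its Wald test, limma 3.58.1 with voom, the replicate number as a block, each line fitted alone, no mitochondrially encoded genes, and each library left out in turn. For the comparison of the untreated lines, the controls of both lines were fitted alone in place of each line. Every gene on the list is accounted for. Genes past the threshold are given by library, and where more than 12 passed, the 12 smallest adjusted p-values are given in full. Further genes that came near the threshold are given as values. The genes and lists were chosen with earlier results of these data known. Some genes of the pathway are not reported here.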

Additional observations from a re-analysis of the deposited data

Results flagged for a closer look

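The caffeine response differed between SW620 and SW480, by the test of the difference itself (edgeR interaction contrast, adjusted over all genes), for INSIG2, NPC1 and PMVK. INSIG2 differed by 1.51 on the log2 scale (SE 0.18, adjusted p = 9.21e-05). It was higher with caffeine in both SW620 libraries and lower in both SW480 libraries, relative to the controls of each line. NPC1 differed by 0.83 (SE 0.20, adjusted p = 0.0197), higher with caffeine in both SW620 libraries and overlapping the controls in SW480. The call of the NPC1 difference depended on single SW620 libraries, with values of 0.66 to 1.00 when 1 library was left out. PMVK differed by -0.82 (SE 0.24, adjusted p = 0.0469), below the controls in both SW620 caffeine libraries and above them in both SW480 caffeine libraries, and this call was lost in 8 alternatives.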

How the results depend on the processing

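The calls of INSIG2 in SW620, of NPC1 in SW620 and of the INSIG2 difference kept their side of the threshold in every alternative run, and no called gene changed sign. Among 1651 gene values under alternatives there were 74 sign changes, spread over 17 genes, each in a comparison where that gene was not called. In SW480 the number of the 28 genes called, 1, was 2 with DESeq2 size factors, 2 with the DESeq2 Wald test, 8 with no filter on low counts and 0 to 7 with 1 library left out; over all genes 636 were called, 1073 with no filter and 56 to 1421 with 1 library left out. In SW620 the number, 3, was 5 with each line fitted alone and 2 to 3 with 1 library left out; over all genes it was 2537, against 4617 with each line fitted alone and 801 to 3245 with 1 library left out. For the difference the number, 3, was 7 with no filter, 5 with the DESeq2 Wald test and 1 to 8 with 1 library left out; over all genes it was 1185, and 451 to 2188 with 1 library left out. Between the untreated lines the number, 24, was 25 with no filter and 25 with the controls fitted alone. Over all genes it was 11591, against 12149 with no filter and 11388 with the controls fitted alone. With 1 library left out, the median log2 fold change of the 28 genes between the untreated lines was -1.06 to -0.76. Leaving out a library leaves a group with 1 library, assumed to vary like the others, and the causes of these shifts were not tested. With the replicate block the counts over all genes were 590 in SW480, 2249 in SW620, 1087 for the difference and 11397 between the lines, and the block added the call of TM7SF2 for the difference. Deviations of same-numbered libraries correlated at -0.189 to 0.0265 over pairs of groups, so the numbers were not taken to pair the samples. Few reads were counted for NPC1L1 in SW480 and for CYP51A1 in SW620.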

Other observations

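Genes around the pathway were counted from 4 further lists. Over all genes tested, 1.67% were called higher and 1.93% lower with caffeine in SW480, 8.1% higher and 6.25% lower with caffeine in SW620, and 33% higher and 32.6% lower in SW620 than in SW480 controls. Of 12 genes of fatty acid synthesis driven by the same factors, 1 was higher and 0 lower with caffeine in SW480, and 1 was higher and 2 lower in SW620 (edgeR, adjusted p under 0.05). FASN, fatty acid synthase, had 759.3 and 1090.4 CPM with caffeine in SW480, against 571.0 and 562.3 CPM in controls (log2 fold change 0.71, adjusted p = 0.0193). In SW620 FASN had 350.5 and 421.5 CPM with caffeine and 465.7 and 458.8 CPM in controls, and the responses differed by -0.97 (SE 0.22, adjusted p = 0.0128). ACSS2, which makes acetyl-CoA from acetate, was higher in SW620 with caffeine, at 19.6 and 18.1 CPM against 11.1 and 13.7 CPM in controls (log2 fold change 0.60, adjusted p = 0.0157). The desaturases FADS1 and FADS2 were lower there, at -0.48 and -0.45 (adjusted p = 0.0286 and 0.0385). Between the untreated lines 2 of the 12 were higher and 6 lower in SW620, where the shares over all genes were 33% and 32.6%, led by ACSS2 (-4.10), LPIN1 (-2.49) and FADS2 (-2.34).

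Of 12 further genes of sterol transport and storage, 1 was higher with caffeine in SW480, and 1 was higher and 3 lower in SW620, where the shares over all genes were 1.67% higher in SW480 and 8.1% higher and 6.25% lower in SW620. STARD3, a sterol carrier of late endosomes, had 250.0 and 289.9 CPM with caffeine in SW480, against 139.4 and 182.5 CPM in controls (log2 fold change 0.75, adjusted p = 0.00811), and the responses of the lines differed by -0.71 (adjusted p = 0.0371). OSBP, which exchanges sterol at the Golgi, was higher in SW620 at 0.54 (adjusted p = 0.00801). TMEM97, known to bind NPC1, was lower there at -0.55 (adjusted p = 0.0189), and SCARB1, a lipoprotein receptor, at -0.42 (adjusted p = 0.0224). Between the untreated lines 6 of the 12 were higher and 5 lower in SW620, against 33% and 32.6% of all genes, with GRAMD1B at 4.81 and NCEH1 at 2.23.

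Of 8 genes of SREBP cleavage and sterol-regulated degradation, 0 were called in SW480 and 1 in SW620, the ubiquitin ligase SYVN1 at 0.49 (adjusted p = 0.0156). At an unadjusted p under 0.05 the SW480 count of these 8 was also 0. Of 10 genes of isoprenoid branches, 0 were called in SW480, with 2 at an unadjusted p under 0.05, and 1 in SW620, the prenyltransferase subunit RABGGTB at -0.37 (adjusted p = 0.0376). Calls over all genes numbered 636 of 17671 in SW480 and 2537 of 17671 in SW620, and 1 call in 8 or in 10 is close to the SW620 share.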
